A study of Mus musculus with 2 samples.

Results

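The genes described here are 10 members of the oxygen sensing pathway of hypoxia-inducible factor (HIF), out of 55536 mouse genes measured in heart. They were taken by symbol: the alpha subunits Hif1a, Epas1 and Hif3a, the beta subunit Arnt, the prolyl hydroxylases Egln1, Egln2 and Egln3, the asparaginyl hydroxylase Hif1an, the ubiquitin ligase component Vhl, and Ndufa4l2, a known target. All 10 were found in both kinds of deposited table. The hearts came from 2 female mice of the hybrid strain B6CASTF1/J, a first generation cross of C57BL/6J and CAST/EiJ, aged 36 days and untreated as far as the labels state. Replicate 2 is the animal numbered 4 and replicate 1 the animal numbered 3. Total RNA of whole heart tissue (300 ng for each library) was sequenced after ribosomal RNA reduction, going by the spike-in set that the labels name. Both libraries carry 1 donor identifier but separate biosamples, and were treated as 2 animals. They form 1 group, so the only comparison open to them is that of replicate 2 with replicate 1, which sets the reads of one library against those of another and tests no condition.

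In cells with enough oxygen, the prolyl hydroxylases use it to hydroxylate proline residues of the HIF alpha subunits, and the Vhl protein then binds the hydroxylated subunit as the recognition part of a ubiquitin ligase that sends it to the proteasome. The asparaginyl hydroxylase acts on an asparagine near the C-terminus of the alpha subunit and blocks its contact with the coactivators p300 and CBP. When oxygen is short the alpha subunits persist, pair with Arnt and bind short DNA motifs at their target genes. The RNA levels given below therefore say how much message for each component was present, and do not measure hydroxylation, protein amount or HIF activity. A whole heart holds cardiomyocytes, endothelial cells, pericytes, fibroblasts and blood. In such bulk RNA, fewer cells of a type and less RNA per cell cannot be told apart.

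The proline and asparagine codons on which the pathway acts are shown first, because the transcripts described below differ in whether they hold them. A prolyl site was searched as the protein motif leucine, any residue, any residue, leucine, alanine, proline in every coding transcript of the alpha subunits, and an asparaginyl site as the run aspartate, cysteine, glutamate, valine, asparagine. Each stretch is written 5′ to 3′ on the coding strand with the hydroxylated codon in capitals, from the GENCODE M21 transcripts (mm10), and each lies within 1 coding exon. Codons are counted from the start codon of the named transcript.
Epas1-201 codon 405: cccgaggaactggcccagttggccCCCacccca
Epas1-201 codon 530: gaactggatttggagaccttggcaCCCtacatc
Epas1-201 codon 851: accagatatgactgtgaggtgAACgtgccc
Hif1a-201 codon 402: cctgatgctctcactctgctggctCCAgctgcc
Hif1a-201 codon 577: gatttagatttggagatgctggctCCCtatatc
Hif1a-201 codon 813: accagttacgattgtgaagttAATgctccc
Hif3a-202 codon 489: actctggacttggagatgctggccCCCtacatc

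The Epas1 sites lie at chr17:86824561-86824593, chr17:86827504-86827536 and chr17:86831007-86831036 on the plus strand. Those of Hif1a lie at chr12:73939680-73939712, chr12:73941967-73941999 and chr12:73945608-73945637 on the plus strand, and that of Hif3a at chr7:17041199-17041231 on the minus strand. Epas1 and Hif1a each hold 2 prolyl sites and 1 asparaginyl site, whereas Hif3a holds 1 prolyl site and no match to the asparaginyl run. The second prolyl site is the more alike between the genes: the stretches of Epas1 (codon 530) and Hif1a (codon 577) share 25 of 33 bases, and those of Hif1a and Hif3a share 26 of 33. The stretches around the first prolyl sites of Epas1 and Hif1a share 18 of 33 bases, and those around the asparagine share 22 of 30.

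Replicate 2 held 38332179 and replicate 1 held 39053339 expected counts, an estimate of the reads from each gene. Levels are given as TPM (transcript abundance scaled to a fixed sum in each library), a unit that corrects for transcript length and so allows genes to be compared, and as mean ± SD over n = 2. The authors' gene table is called the first quantification below, and their other transcript table, summed per gene, the second. All intervals cover counting error only. The tissue label was checked against 10 cardiomyocyte markers, all detected, whose TPM summed to 35892 in replicate 2 and 36430 in replicate 1. The median detected nuclear protein-coding gene, of 11042 with at least 1 TPM in each library, stood at 8.72 TPM. By that limit 9 of the 10 pathway genes were detected, and Hif3a was under it in replicate 2. In the second quantification, and at a limit of 0.5 TPM, 10 of 10 were detected. Rescaled over nuclear protein-coding genes alone, mean levels were higher throughout, from 288 TPM for Egln1 to 2.79 TPM for Hif3a, against 113 TPM and 1.10 TPM for these genes as deposited.

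Among the alpha subunits, Epas1 carried most of the message. Epas1 (ENSMUSG00000024140.10, chr17:86753700-86833410, plus strand), which encodes HIF-2 alpha and is known for its abundance in endothelium, had 86.2 TPM in replicate 2 and 90.6 TPM in replicate 1. Hif1a (ENSMUSG00000021109.13, chr12:73901375-73947530, plus strand), which encodes HIF-1 alpha, had 20.2 TPM in replicate 2 and 21.2 TPM in replicate 1. Hif3a (ENSMUSG00000004328.15, chr7:17031507-17062427, minus strand), some of whose protein forms inhibit the other alpha subunits, had 0.95 TPM in replicate 2 and 1.25 TPM in replicate 1. The ranges of the 3 genes did not overlap, and the order was the same in both libraries.

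Epas1 stood 4.28-fold above Hif1a in replicate 2 and 4.27-fold above it in replicate 1. It held 80.2% ± 0.129 of the TPM of the alpha subunits, Hif1a held 18.8% ± 0.0260 and Hif3a held 0.996% ± 0.155 (SD, n = 2). Among the detected coding genes Epas1 lay at the 94.3rd percentile and Hif1a at the 75.1st. Hif3a, with 110 expected counts in replicate 2 and 142 in replicate 1, was above the 3 counts that a count of 0 allows. Endothelial markers, 10 of 10 detected, summed to 646 TPM in replicate 2 and 701 TPM in replicate 1. Which cells held the Epas1 message was not tested.

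**Figure D1:**
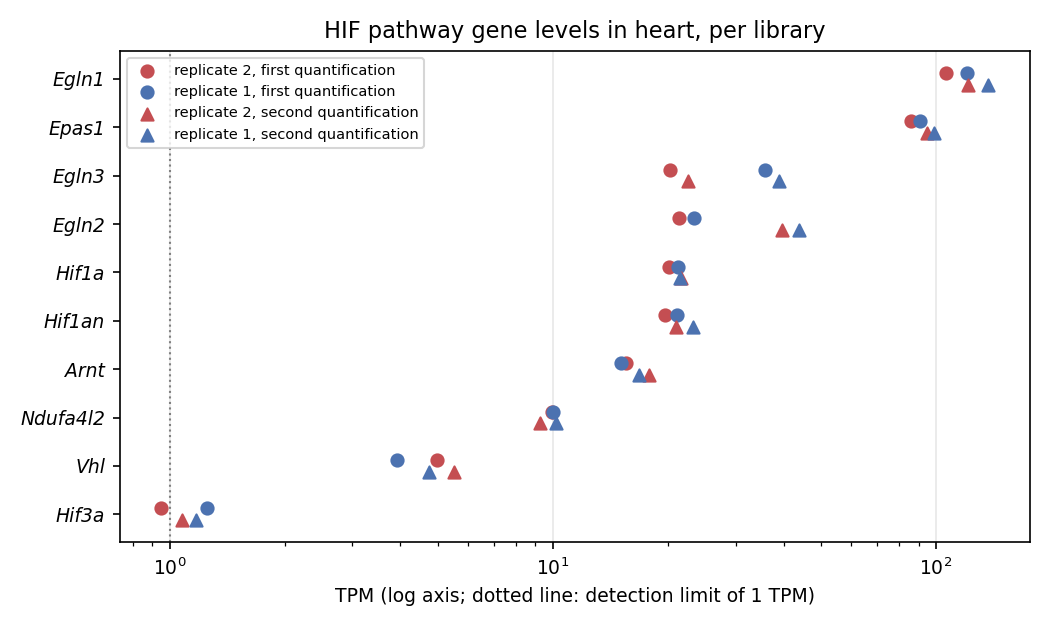
TPM (log axis) of each pathway gene, ordered from the highest mean at the top. Circles are the first quantification (gene table) and triangles the second (transcript table summed per gene), with replicate 2 in red and replicate 1 in blue. Egln1 and Epas1 lie highest, apart from a middle group of 6 genes, and Vhl and Hif3a lie lowest. The widest gap between replicates is that of Egln3, and the widest gap between quantifications is that of Egln2.

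Arnt (ENSMUSG00000015522.18, chr3:95434388-95497240, plus strand), the beta subunit with which alpha subunits pair to bind DNA, had 15.49 TPM in replicate 2 and 15.04 TPM in replicate 1. It lay below Epas1 and Hif1a in both libraries. The summed alpha subunits, at 107 TPM in replicate 2 and 113 TPM in replicate 1, exceeded it 6.92-fold in replicate 2 and 7.52-fold in replicate 1. Its paralogue Arnt2, known mainly from nervous tissue, was the lowest gene of the partner list at 0.185 ± 0.0495 TPM.

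The prolyl hydroxylases were led by Egln1, the highest of all 10 genes. Egln1 (ENSMUSG00000031987.6, chr8:124908587-124949324, minus strand), which encodes PHD2, the main prolyl hydroxylase under normal oxygen in most tissues, had 106 TPM in replicate 2 and 120 TPM in replicate 1. Egln2 (ENSMUSG00000058709.11, chr7:27158658-27166802, minus strand), which encodes PHD1, had 21.4 TPM in replicate 2 and 23.3 TPM in replicate 1. Egln3 (ENSMUSG00000035105.5, chr12:54178981-54203860, minus strand), which encodes PHD3 and is itself a HIF target in many cells, had 20.2 TPM in replicate 2 and 35.7 TPM in replicate 1. Egln1 was above the other two in both libraries, while Egln3 lay under Egln2 in replicate 2 and over it in replicate 1.

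Egln1 held 71.8% of the prolyl hydroxylase TPM in replicate 2 and 67.1% in replicate 1. Egln2 held 14.5% in replicate 2 and 13.0% in replicate 1, and Egln3 held 13.7% in replicate 2 and 19.9% in replicate 1. The family share therefore differed between the libraries through Egln3 more than through Egln2. The summed prolyl hydroxylases reached 148 TPM in replicate 2 and 179 TPM in replicate 1, in each library more than the summed alpha subunits. Egln1 was 5.24-fold above Egln3 in replicate 2 and 3.37-fold above it in replicate 1. The Egln1 to Egln2 fold was steadier, at 4.96 in replicate 2 and 5.16 in replicate 1.

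Hif1an (ENSMUSG00000036450.4, chr19:44562850-44576274, plus strand), the asparaginyl hydroxylase, had 19.6 TPM in replicate 2 and 21.1 TPM in replicate 1. It stood close to Hif1a, the range of which it overlapped, and lay 5.42-fold below Egln1 in replicate 2 and 5.72-fold below it in replicate 1. Vhl (ENSMUSG00000033933.13, chr6:113623959-113631633, plus strand), which recognises the hydroxylated proline, had 4.99 TPM in replicate 2 and 3.93 TPM in replicate 1. Vhl was the lowest detected gene of the pathway, at the 28.7th percentile of detected coding genes. The other parts of its ligase were higher: Elob had 124 TPM in replicate 2 and 140 TPM in replicate 1, and Cul2 had 18.9 TPM in replicate 2 and 20.8 TPM in replicate 1, both picked for their role in that complex after their values were seen.

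Ndufa4l2 (ENSMUSG00000040280.10, chr10:127514967-127517154, plus strand), a mitochondrial protein gene induced by HIF in several cell types and known from vascular mural cells, had 9.94 TPM in replicate 2 and 9.98 TPM in replicate 1. This level was almost the same in both libraries and lay at the 54.5th percentile of detected coding genes. The second quantification gave the gene 9.26 TPM in replicate 2 and 10.18 TPM in replicate 1. Its coding transcript alone had 8.46 TPM in replicate 2 and 9.98 TPM in replicate 1 in the first quantification. In the second that transcript had 5.69 TPM in replicate 2 and 5.71 TPM in replicate 1. Ndufa4, the paralogue that encodes a subunit of cytochrome c oxidase, had 1106 TPM in replicate 2 and 1198 TPM in replicate 1. Ndufa4l2 thus made up 0.859% ± 0.0457 of the pair's TPM (SD, n = 2), with Ndufa4 111-fold higher in replicate 2 and 120-fold higher in replicate 1. The other known paralogue, listed as AA467197, was nearly silent at 0.155 ± 0.106 TPM. The 10 pericyte markers, all detected, had a median level of 9.89 TPM, and the cells that held Ndufa4l2 message were not tested.

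By mean TPM the order from high to low was Egln1, Epas1, Egln3, Egln2, Hif1a, Hif1an, Arnt, Ndufa4l2, Vhl and Hif3a. The Egln3 range took in both values of Egln2 and overlapped those of Hif1a and Hif1an, so its place among these genes was not set beyond the spread of the 2 libraries. Hif1a and Hif1an also overlapped, and every other neighbouring pair was separate. In the second quantification Egln2 ranked higher, at 39.5 TPM in replicate 2 and 43.9 TPM in replicate 1, above Egln3 at 22.6 TPM in replicate 2 and 38.9 TPM in replicate 1. There Hif1an had a mean of 22.1 TPM and Hif1a one of 21.6 TPM, again with overlapping ranges. The 6 remaining genes kept their places.

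The annotation lists 37 transcripts for the 10 genes, and in 9 of 10 both quantifications gave the same leading transcript. Egln1 and Egln3 have a single transcript each, and Epas1 was counted entirely as Epas1-201. All Epas1 message was therefore assigned to a form with both prolyl sites and the asparaginyl site. Hif1a was led by Hif1a-201, with 69.1% of the TPM in replicate 2 and 66.5% in replicate 1 in the first quantification and 76.1% in replicate 2 and 77.5% in replicate 1 in the second.

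The next Hif1a transcript, Hif1a-202, begins 6529 bases upstream of Hif1a-201 at an alternative first exon and encodes 810 instead of 836 residues. It held 18.3% in replicate 2 and 17.7% in replicate 1 by the first quantification, and 12.7% in replicate 2 and 14.2% in replicate 1 by the second. Hif1a-202 holds the same 3 sites, there at codons 390, 551 and 787. The short coding transcript Hif1a-203, of 258 codons, holds none of them. Transcripts with the sites made up 85.8% ± 2.26 of Hif1a TPM in the first quantification and 90.3% ± 2.03 in the second (SD, n = 2). The rest lay in shorter transcripts, for which few reads give a high TPM. In the first quantification Hif1a-203 had 44.25 expected counts in replicate 2 and 63.96 in replicate 1. Hif1a-204 had 13.6 and 22.6 in these libraries, and Hif1a-205 had 10.6 and 10.9, out of 2510 and 2653 for the gene. The share of reads without the sites was thus smaller than that of TPM.

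Hif3a was split among its transcripts on few reads. Hif3a-202, which starts at the most upstream position, held 47.4% in replicate 2 and 46.4% in replicate 1 in the first quantification, and 43.9% in replicate 2 and 58.1% in replicate 1 in the second. Hif3a-201, which starts further downstream, had 21.9 expected counts in replicate 2 and 23.0 in replicate 1. These 2 transcripts, the ones with the prolyl site, together made up 78.8% ± 6.19 of Hif3a TPM in the first quantification and 80.8% ± 1.57 in the second. The short transcripts Hif3a-203 and Hif3a-204 rested on fewer than 2 counts each in every library, too few to place them.

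For Egln2 the gene level depended on how reads were given to a short transcript. Egln2-203, a noncoding transcript of 455 bases, had 1.55 counts in replicate 2 and 8.64 in replicate 1 in the first quantification, against 73 counts in replicate 2 and 90 in replicate 1 in the second. Because a short transcript turns few reads into a high TPM, these made up 41.7% of Egln2 TPM in replicate 2 and 44.8% in replicate 1 in the second quantification. The coding Egln2-201 itself differed little, at 20.0 TPM in replicate 2 and 21.7 TPM in replicate 1 in the first and 22.6 TPM in replicate 2 and 24.2 TPM in replicate 1 in the second. In the second quantification Egln3 had 22.55 TPM in replicate 2, where Egln2-201 alone had 22.63 TPM. In replicate 1 Egln3 had 38.9 TPM, above Egln2-201. The lead of Egln2 over Egln3 there thus needs Egln2-203 in replicate 1, and lies nearly all in it in replicate 2.

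Vhl-201, the one coding transcript of Vhl, had 3.01 TPM in replicate 2 and 2.97 TPM in replicate 1, so the gap between libraries in gene-level TPM lay in its short other transcripts. Vhl-204, of 294 bases and marked for nonsense-mediated decay, had 1.32 TPM in replicate 2 and 0.53 TPM in replicate 1 from 7.84 and 3.27 expected counts in these libraries, and the second quantification gave it none. Vhl-202 held 13.2% of Vhl TPM in replicate 2 and 10.9% in replicate 1 in the first quantification, and 33.0% in replicate 2 and 0% in replicate 1 in the second. The second gave Vhl-203, which starts close by, 0% in replicate 2 and 29.0% in replicate 1. Ndufa4l2-201, the coding form, was split likewise, with 85.1% in replicate 2 and 100% in replicate 1 in the first quantification and 61.5% in replicate 2 and 56.1% in replicate 1 in the second, where noncoding Ndufa4l2-202 took 38.5% in replicate 2 and 43.9% in replicate 1. In the first quantification Ndufa4l2-203 held 14.1% in replicate 2 and 0% in replicate 1.

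Arnt was the gene whose leading transcript changed. In the first quantification Arnt-202 held 43.9% in replicate 2 and 43.0% in replicate 1, and Arnt-203 held 39.8% in replicate 2 and 39.5% in replicate 1. In the second, Arnt-203 held 43.8% in replicate 2 and 48.1% in replicate 1, and Arnt-202 held 42.4% in replicate 2 and 37.6% in replicate 1. These transcripts start within a few bases of each other and differ in length, 4325 bases for Arnt-202 and 2699 bases for Arnt-203, so which of them led depended on the quantification. Hif1an was nearly all Hif1an-201, at 95.4% ± 0.762 in the first and 99.3% ± 0.419 in the second.

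**Figure D2:**
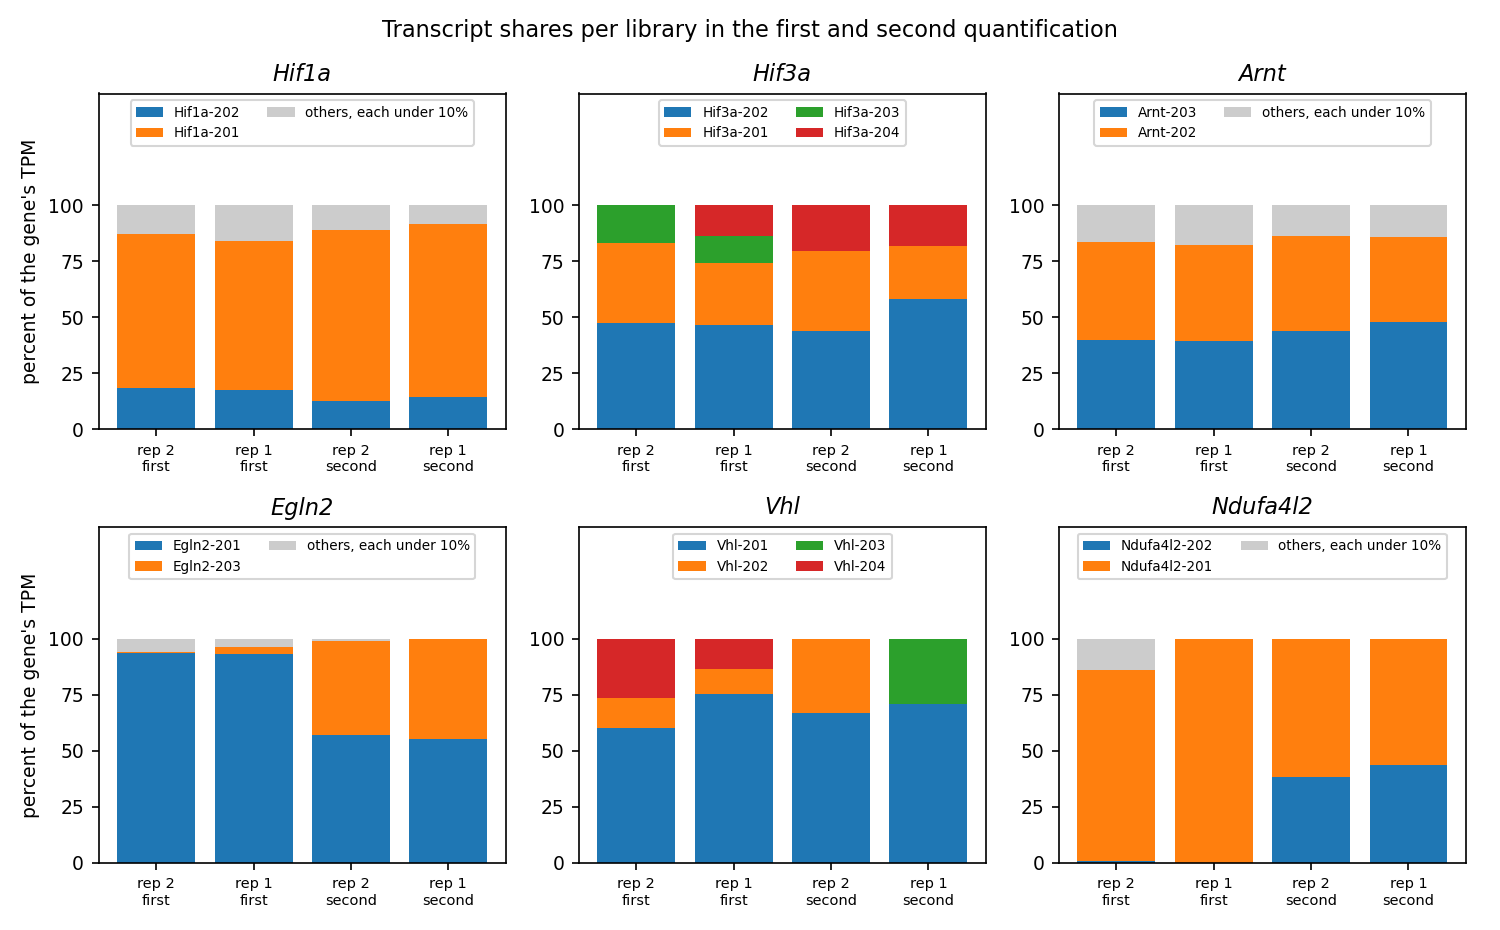
Percent of each gene's TPM held by its transcripts in replicate 2 and replicate 1, first quantification in the left pair of bars and second in the right pair. Each colour is a transcript with a mean of at least 10% in either quantification, and grey sums the others. Hif1a keeps its leading transcript throughout, while Egln2 and Ndufa4l2 show a second transcript that is large only in the second quantification.

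Several pathway genes overlap other annotated genes, and whether counting used the strand is not given in the sources used here. Hif1a is overlapped by the antisense gene Gm15283, with 0.72 TPM in replicate 2 and 0.41 TPM in replicate 1, and on its own strand by Gm49321, with 2.54 TPM in replicate 2 and 2.92 TPM in replicate 1. Hif1a was the one pathway gene whose count had a posterior SD above 0, at 1.37 reads in replicate 2 and 1.38 in replicate 1, against 2510 and 2653 expected counts in these libraries. Ndufa4l2 meets Shmt2, on the opposite strand, with exons of both genes overlapping at their ends. Shmt2, an enzyme of folate metabolism, was the higher of the pair at 15.97 TPM in replicate 2 and 15.63 TPM in replicate 1, so reads in the shared bases are uncertain if strand was not used. The other overlapping genes, AC096777.1 with Epas1, Gm42672 with Arnt, 4833404L02Rik with Hif3a and Cyp2t4 with Egln2, had a mean of at most 0.57 TPM.

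Between the 2 hearts the pathway genes differed little except for Egln3. A gene was called if it differed 2-fold or more and its adjusted p was under 0.05 in the exact binomial test on expected counts, with effective library sizes from TMM and Benjamini-Hochberg adjustment over 13745 genes. By that rule 0 of 10 pathway genes were called, beside 1.54% of all genes tested, 0.553% higher and 0.982% lower in replicate 2. At any fold, 2 of the 10 passed the adjusted p, both lower in replicate 2, beside 11.9% of all genes lower and 21.9% in either direction. The same 2 were the ones with an unadjusted p under 0.05, as were 4365 of the 13745 genes. With edgeR's exact test, which takes a common dispersion from the 2 libraries as 1 group, 0 of 10 passed, beside 1.13% of all genes at any fold and 1.03% at 2-fold or more, and 1 had an unadjusted p under 0.05, as did 583 of the 13745 genes.

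Egln3 was the pathway gene furthest apart, with 1578 expected counts in replicate 2 and 2878 in replicate 1. Its log2 ratio of replicate 2 over replicate 1 was -0.76, with a 95% interval of -0.85 to -0.68, a 1.70-fold difference in size (adjusted p = 1.35e-64, exact binomial test). Over all tested genes the middle 95% of log2 ratios ran between -0.61 and 0.59, and the size of the Egln3 ratio lay at the 97.1st percentile. Under edgeR's exact test with a common dispersion its adjusted p was 0.0909, and it did not pass. That dispersion comes from the same 2 libraries, so it already holds the differences tested, and not passing is partly built in. The second quantification gave a log2 ratio of -0.74 for Egln3 and the spike-in scale -0.52, so replicate 2 was the lower in each.

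Egln1 had 11274 expected counts in replicate 2 and 13227 in replicate 1. Its log2 ratio was -0.13, with a 95% interval of -0.16 to -0.09 (adjusted p = 1e-10, exact binomial test), so that at these counts a 1.09-fold difference passed. With edgeR's exact test its adjusted p was 1, and on the spike-in scale its direction turned round, to 0.11. The other 8 genes did not pass. Their log2 ratios were -0.02 for Epas1, 0.02 for Hif1a, -0.26 for Hif3a, 0.07 for Arnt, -0.05 for Egln2, -0.06 for Hif1an, 0.12 for Vhl and -0.09 for Ndufa4l2. The 95% interval of Epas1 ran between -0.05 and 0.02, and that of Hif3a, the gene with fewest reads, between -0.64 and 0.10. Hif1an passed in the second quantification, at -0.10 (adjusted p = 0.015, exact binomial test). The median over the 10 genes was -0.06, against -0.00015 over all genes tested.

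The scale mattered for direction. Spike-in RNA made up 0.427% of expected counts in replicate 2 and 0.532% in replicate 1, and scaling by it placed the median of all genes at 0.24, with 167 genes called higher and 83 called lower, where TMM called 76 higher and 135 lower. On that scale Egln3 and Hif3a were the pathway genes still below 0, at -0.52 and -0.02. A change of scale moves every log2 ratio by the same amount. Positions relative to the median of all genes are therefore those given by TMM by construction, with Egln3 the furthest below it of the pathway genes.

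Other cell types and states moved between the same libraries, and their part in the Egln3 ratio was not tested. Erythroid markers, summing to 11883 TPM in replicate 2 and 36364 TPM in replicate 1, were called lower for 7 of 7 genes, beside 0.982% of all genes tested, with none at 0. Brown adipocyte markers summed to 1077 TPM in replicate 2 and 1235 TPM in replicate 1, and 3 of 6 were called lower, beside the same 0.982%, with none at 0. Most of that sum was Cox7a1, a respiratory gene that heart muscle also expresses, with 1012 TPM in replicate 2 and 1088 TPM in replicate 1, which did not pass. The median log2 ratio of the 6 was -1.10, and Ucp1, the defining gene of brown fat, had 7.95 TPM in replicate 2 and 52.6 TPM in replicate 1. Of 10 immediate early genes, a rapid response class, 3 were called higher and 1 lower, beside 0.553% higher and 0.982% lower over all genes. Their sum was 131 TPM in replicate 2 and 82.5 TPM in replicate 1. Most of that gap was Nr4a1, with 35.5 TPM in replicate 2 and 4.01 TPM in replicate 1, and 3 of the 10 had a log2 ratio below 0. None of the cardiomyocyte, endothelial, pericyte, smooth muscle, fibroblast or macrophage markers were called, and the median log2 ratios of these lists lay between -0.09 and 0.07. At any fold, 5 of 10 endothelial markers passed lower and 0 higher, with a median of -0.09, beside 11.9% of all genes lower, while 4 of 10 cardiomyocyte markers passed lower and 6 higher. Lower and higher counts were 2 and 4 of 8 for fibroblast, 2 and 1 of 8 for macrophage, 3 and 1 of 10 for pericyte and 1 and 0 of 6 for smooth muscle markers. Beside these counts, 11.9% of all genes tested passed lower and 1376 of 13745 passed higher, shares not matched for counts. The 10 cardiomyocyte markers passed at log2 ratios between -0.13 and 0.17, so passing here does not measure a shift of a cell type. The part of the endothelial markers in the ratios of the pathway genes and their targets was not tested. For fibroblasts the sum was 759 TPM in replicate 2 and 751 TPM in replicate 1, for smooth muscle 142 TPM in replicate 2 and 159 TPM in replicate 1, for macrophages 110 TPM in replicate 2 and 115 TPM in replicate 1, and for pericytes 260 TPM in replicate 2 and 274 TPM in replicate 1.

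**Figure D3:**
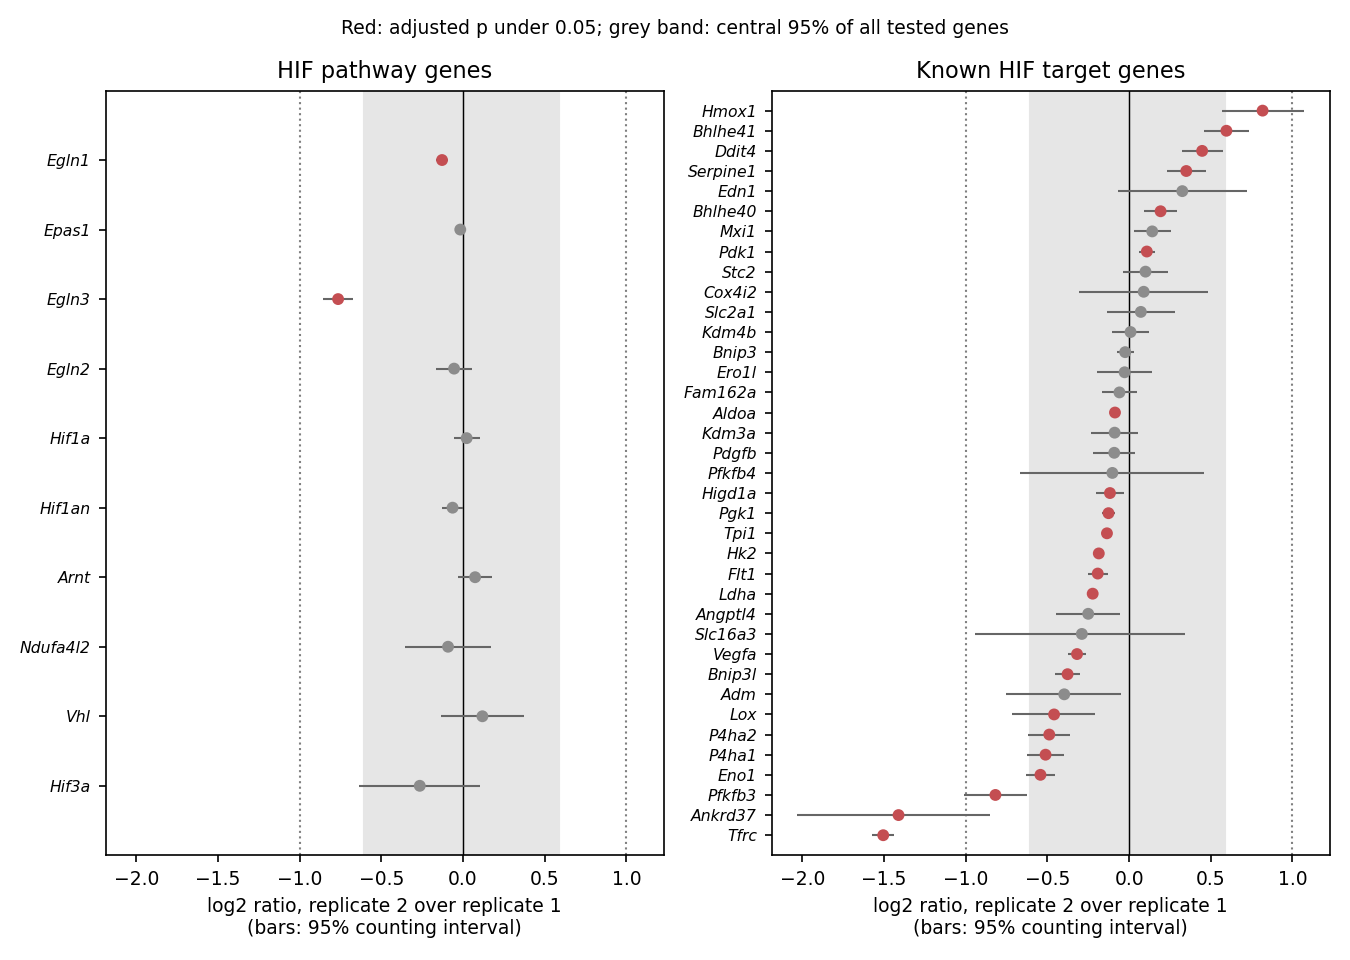
Log2 ratio of replicate 2 over replicate 1, on the TMM scale, for the 10 pathway genes (left) and 37 known HIF target genes (right), with 95% counting intervals as bars. Red points passed an adjusted p of 0.05 in the exact binomial test, the grey band holds the middle 95% of all tested genes, and dotted lines mark 2-fold. Egln3 is the one pathway gene outside the band, and among the targets Tfrc and Ankrd37 lie beyond 2-fold.

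Known HIF targets were looked at beside the pathway genes, on a list of 39 genes that were all found. Of these 35 were detected, and the median over all 39 was 14.0 TPM. The highest was Aldoa, a glycolytic enzyme, at 1419 ± 109 TPM, and the lowest was Epo, the erythropoietin gene known from kidney, which was listed at 0 in both hearts. Of 37 with enough reads, 16 passed lower in replicate 2 and 6 passed higher, which is 43.2% and 16.2%, beside 11.9% lower over all 13745 genes tested and 1376 of them higher. Their median log2 ratio was -0.10. On the spike-in scale it was 0.14, against 0.24 over all genes there. Passing depends on the number of reads as well as on the fold. Aldoa, with 57097 expected counts in replicate 2 and 65076 in replicate 1, passed at a log2 ratio of -0.09. The shares over all genes were not matched for counts, for this list or the others, so the percentages do not measure a shift of the targets.

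The 2 targets called, of 37 tested, were both lower in replicate 2, beside 0.982% of all genes called lower. Tfrc, the transferrin receptor, which red cell precursors also use heavily, had 20.1 TPM in replicate 2 and 56.7 TPM in replicate 1, a log2 ratio of -1.51. Ankrd37, a hypoxia-induced ankyrin repeat gene, had 1.91 TPM in replicate 2 and 4.36 TPM in replicate 1, a log2 ratio of -1.41. Both were also called by edgeR's exact test, beside 1.03% of all genes, and no other target passed it. The part of the lower erythroid markers in the Tfrc ratio was not tested. Chosen after their values were seen, Pfkfb3, which raises glycolytic flux, had 3.94 TPM in replicate 2 and 6.85 TPM in replicate 1, and Vegfa, the vascular growth factor, had 73.2 TPM in replicate 2 and 89.9 TPM in replicate 1. In the other direction and chosen likewise, Hmox1, which breaks down haem, had 7.77 TPM in replicate 2 and 4.55 TPM in replicate 1. Passing targets thus lay on both sides of 0.

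Of the partners and regulators of the pathway, 23 genes were found and 21 detected, and the median over all 23 was 14.3 TPM. The highest was Hsp90ab1, a chaperone that binds HIF alpha subunits, at 423 ± 24.7 TPM. Of 21 with enough reads, 4 (19.0%) passed lower and 3 (14.3%) higher, beside 11.9% lower and 1376 of 13745 genes higher over all genes tested. Called was 1 of the 21, beside 1.54% of all genes: Arntl, the core clock gene that belongs to the same protein family as Arnt, with 1.37 TPM in replicate 2 and 3.67 TPM in replicate 1, a log2 ratio of -1.40. Ep300 and Crebbp, the coactivator genes whose binding the asparaginyl hydroxylase controls, were at 18.6 ± 1.75 TPM and 14.3 ± 0.431 TPM, levels close to those of Hif1an and Arnt and named here for their role after their values were seen.

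The DNA before the prolyl hydroxylase genes was read for the letters that HIF binds, since Egln1 and Egln3 are known HIF targets. A link between these letters and the ratios between the libraries was not tested. The motifs searched were ACGTG and GCGTG on both strands, in the 250 bases before each RefSeq gene start (GRCm38.p6). The palindrome CACGTG holds ACGTG on both strands. DNA outside these windows, further upstream or inside the genes, was not searched. Each sequence is written 5′ to 3′ on the gene's strand, with matches in capitals, where CACGC is GCGTG on the other strand. For Egln1 the stretch stops where the first exon of Egln1-201 begins.
Egln1, 180 bases: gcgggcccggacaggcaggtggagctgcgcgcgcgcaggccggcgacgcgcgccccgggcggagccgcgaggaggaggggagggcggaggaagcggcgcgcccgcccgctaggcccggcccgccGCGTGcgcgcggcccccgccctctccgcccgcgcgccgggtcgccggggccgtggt
Egln2, 250 bases: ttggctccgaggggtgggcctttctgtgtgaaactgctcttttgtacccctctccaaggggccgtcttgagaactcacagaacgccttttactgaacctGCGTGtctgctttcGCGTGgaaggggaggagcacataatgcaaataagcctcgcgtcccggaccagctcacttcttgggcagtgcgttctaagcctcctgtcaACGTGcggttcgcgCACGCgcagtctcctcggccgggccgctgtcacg
Egln3, 250 bases: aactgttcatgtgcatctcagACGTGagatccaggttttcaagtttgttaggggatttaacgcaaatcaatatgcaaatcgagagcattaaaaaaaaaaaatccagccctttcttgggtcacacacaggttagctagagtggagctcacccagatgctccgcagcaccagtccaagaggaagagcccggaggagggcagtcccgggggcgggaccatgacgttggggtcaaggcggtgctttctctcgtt

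These stretches lie at chr8:124949325-124949504, chr7:27166803-27167052 and chr12:54203875-54204124, all read from the minus strand and outside annotated exons. Egln1 had GCGTG 126 bases before its RefSeq start, and ACGTG 68 bases before it, where the M21 annotation already places the first exon. Egln2 had ACGTG 48 bases before its start and GCGTG at 151, 137 and 34 bases. A second RefSeq start of Egln2 had GCGTG at 116 bases. The window before that second start is intron for Egln2-201, Egln2-202 and Egln2-203. Egln3 had a single ACGTG, 229 bases before its start.

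Of the other genes with a window, Hif1a had ACGTG at 135 and 134 bases, the overlapping strands of a CACGTG, and again at 70 bases before its RefSeq start, which lies just upstream of the Hif1a-201 start. That stretch is intron for Hif1a-202. Hif3a had GCGTG at 230 and 186 bases, Arnt had GCGTG at 29 bases, and Hif1an and Vhl had no match in these windows. In all, 8 of the 10 genes, all but Epas1 and Ndufa4l2, had 9 windows, of which 4 held ACGTG and 5 held GCGTG. Over 32851 windows of all genes the shares were 16.6% with ACGTG, 28.2% with GCGTG and 38.6% with either. For the targets, 29 of 39 genes had 42 windows, of which 21 held ACGTG and 24 held GCGTG. Both motifs hold the letters CG, and the windows of all genes were not matched to these windows for base composition. The counts for members and targets therefore do not measure an enrichment of the motifs. The member counts also include the Egln1 ACGTG inside the annotated exon and the Egln2 window that is intron. A match is a run of letters and not a measured binding site.

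**Figure D4:**
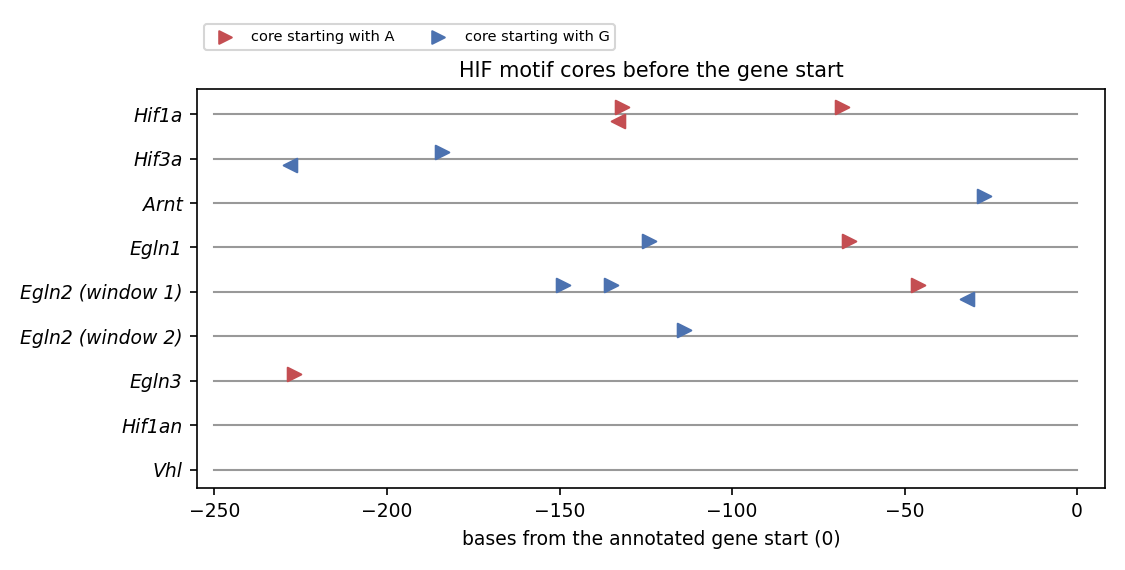
Position of HIF motif letters in the 250 bases before the RefSeq gene start (0), with a line for each window. Red marks the motif that begins with A and blue the one that begins with G. Triangles pointing right lie on the gene's strand and those pointing left on the other strand. Egln2 has the most matches, and Hif1an and Vhl have none.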

How the data were processed

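Heart RNA of 2 mice was quantified by the authors on mm10 with annotation M21, as the deposited description files state. Which programs ran is not given in the sources used here. Deposited gene and transcript tables hold expected counts (estimated reads, not normalized), TPM and FPKM, both scaled by the authors to length and library, and a posterior mean TPM with its SD, per the file headers. A second deposited transcript table holds estimated counts and TPM, summed here per gene. A deposited percent column gives each transcript's share of its gene. All shares in the text were recomputed from TPM. The 26248 rows identified by a bare number were dropped, and 97 spike-in rows served only as an alternative scale. Reads of the CAST allele were mapped to a C57BL/6J reference, and the effect was not measured.

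Expected counts were rounded and compared with an exact two-sided binomial test against TMM library sizes (edgeR 4.0.16 in R 4.3.3), with Benjamini-Hochberg adjustment over genes whose summed count reached 50. Log2 ratios had 0.5 added to each count. The test takes counting error as its only spread and does not measure the spread between animals. A difference that passes may be technical. The test was run on simulated counts that also held counting error only. That run cannot show how the test behaves with the spread between 2 hearts. Alternatives were DESeq2 1.42.0 size factors, total mouse counts, spike-in counts, TMM without mitochondrial and haemoglobin genes, the second quantification, no minimum count, edgeR's exact test with a common dispersion (biological coefficient of variation 0.113), other units, and each library alone. A count of 0 allows up to 3 counts, which is 0.0786 CPM in replicate 2 and 0.0772 CPM in replicate 1.

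The members and lists were chosen with earlier results of these data known. Named were all members, their transcripts with at least 10% of a gene's TPM and the leading one, overlapping genes, and from the partner, target and Ndufa4 lists the highest, the lowest and the called genes. Genes named outside this rule (Elob, Cul2, Ep300, Crebbp, Pfkfb3, Vegfa and Hmox1) were chosen after their values were seen. Markers enter as counts and sums, with Cox7a1, Ucp1 and Nr4a1 named likewise. Promoters are from RefSeq and coding sequences from GENCODE M21. Replicate numbers pair nothing, since there is 1 group. Tables and figures were made with Python 3.11.15.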

Additional observations from a re-analysis of the deposited data

How the results depend on the processing

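Epas1, Egln1 and Ndufa4 led their families in both quantifications and in each library alone. Their shares were 81.0%, 64.2% and 99.2% in the second quantification, and 84.5%, 77.8% and 98.2% of expected counts. Left with 1 library, the share ran between 80.1% and 80.3% for Epas1, 67.1% and 71.8% for Egln1, and 99.1% and 99.2% for Ndufa4, with 9 or 10 members detected. The median level was 16.4 TPM for targets and 19.0 TPM for partners in the second quantification. On the spike-in scale the log2 ratio turned to 0.11 for Egln1, 0.23 for Epas1, 0.19 for Egln2, 0.18 for Hif1an and 0.15 for Ndufa4l2. There the target median turned to 0.14 and the partner median was 0.26. On total mouse counts it turned to -0.0546 for Hif1a, -0.00281 for Arnt and -0.0648 for the partner median. The scale itself moved all genes together. Members passing at any fold numbered 4 on total counts, 8 on spike-in counts and 0 with edgeR's exact test, where 2 passed as reported. Over all 13745 genes 3869 passed on total counts, 7952 on spike-in counts and 155 with edgeR's exact test, and 3015 as reported. Among the log2 ratios of members under alternatives, 55 kept direction and side of the threshold, 7 reversed, of which 3 also came to pass, a further 6 came to pass in the same direction and 2 no longer passed. No paired analysis was possible because both libraries belong to 1 group. Depth limits Vhl, Ndufa4l2 and Hif3a most, whose intervals are the widest of the members.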
